A study of Mus musculus with 24 samples.

Results

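The comparison set Hdac3 knockout (KO) brown fat at 7 d of recovery from cold against KO brown fat at 24 h of recovery, and comprised 8 of the 24 libraries of the series, 4 in each group. KO mice carried floxed HDAC3 alleles together with Ucp1-cre, and their Control counterparts carried the floxed alleles without Cre. All were males on a C57BL/6J background, aged 10 to 12 weeks, and the interscapular brown adipose tissue was taken at ZT10 (zeitgeber time, counted from lights on). Mice of the KO 7 d and KO 24 h groups spent 24 h at 15 °C and were returned to 22 °C for 7 days or for 1 day. A KO group and a Control group kept at 22 °C, and Control groups at both recovery times, stood beside them with 4 libraries each. The Ucp1 promoter drives Cre in brown adipocytes, while the tissue also holds vessels, immune cells, nerves and stroma in which the allele is expected to stay intact. The question was whether what KO brown fat gains after a short cold exposure is still there a week later.

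Brown adipocytes burn fatty acids and glucose in mitochondria, and Ucp1, the uncoupling protein of the inner mitochondrial membrane, releases the energy as heat. Noradrenaline from sympathetic nerves switches on lipolysis and the transcription of thermogenic genes in the cold, and rewarming withdraws that drive. Hdac3 is a histone deacetylase that acts within the NCoR and SMRT corepressor complexes, and in brown fat it is also known to support Ucp1 expression before any cold exposure.

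Each value is the authors' group mean in RPKM (a read density corrected for library size and gene length), since no value per library stands in the deposited tables. The log2 ratio of the KO 7 d mean over the KO 24 h mean was centred on its median over the 12224 genes found in both tables, which removed 0.0161. Beside each ratio stands an error limit in log2 units, rebuilt from the authors' deposited p-values. The standard error of the ratio does not exceed it where each p-value follows the normal score of its fold change. That assumption was not tested. A direct test of KO at 7 d against KO at 24 h could not be made. The difference between the KO change and the Control change could be tested, and the word "differed" is kept for genes that passed it. The labels call the libraries biological replicates, so the error limits rest on the spread between those samples. Library totals, recovered from the step sizes of low means, were 7114081 to 10398250 reads in the 4 KO libraries at 7 d and 6401435 to 11977140 reads in the 4 at 24 h.

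Most of the transcriptome stood close to its 24 h level at 7 d. Of 10997 genes with a mean of 1 RPKM or more in either group, 9928 (90.3%) lay within 1.5-fold. In all, 345 genes (3.14%) stood 2-fold or more apart. At 7 d, 148 genes (1.35%) were 2-fold or more lower than at 24 h and 197 (1.79%) were 2-fold or more higher, of which 62 (0.564%) and 43 (0.391%) also exceeded 2 times their error limit. The middle 50% of ratios ran over -0.18 to 0.18 on the log2 scale, and the median error limit was 0.24. The set of genes 2-fold apart leaned to low levels. A mean of 5 RPKM was reached by 37.2% of the lower and 38.6% of the higher genes, against 58.4% of all. At the edge of the threshold, Hvcn1 stood just inside with 0.775 RPKM at 7 d against 1.00 RPKM at 24 h, and Cep128 just outside with 0.611 RPKM against a 24 h mean marginally under 1. A further 19 genes reached 1 RPKM in one group and were listed at 0 in the other, and have no ratio. Genes with both KO and Control means under 0.5 RPKM at either time were not listed at that time and are left out of all these counts, whatever their change. Of the cell cycle list 22 of 38 genes were listed at both times, and of the cytokine list 11 of 27.

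Hdac3, the deleted gene, averaged 7.43 RPKM in KO at 7 d and 6.43 RPKM in KO at 24 h, against 25.4 and 27.1 RPKM in Control at the same times. The authors' deposited table gave a KO over Control log2 fold change of -1.71 at 7 d (adjusted p 6.42e-29) and of -1.93 at 24 h (adjusted p 4.65e-37). The KO log2 ratio of 7 d over 24 h was 0.19 with an error limit of 0.20, so the remaining transcript was at a like level at both times. Of the 14 genes with a ratio among the corepressor complex and the class I and II deacetylases, all 14 lay within 1.5-fold, against 90.3% of all genes. Their ratios ran from -0.19 to 0.43. The brown adipocyte markers were abundant in both KO recovery groups. Cidea, a lipid droplet protein, averaged 1259 RPKM at 7 d and 1289.5 RPKM at 24 h, while T and B lymphocyte markers were near absent, with 3 of 16 genes listed in both tables and none above 1.09 RPKM.

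Ucp1 averaged 32.8 RPKM in KO at 22 °C, 3884 RPKM at 24 h of recovery and 2163 RPKM at 7 d. The 7 d mean was 0.551 times the 24 h mean, a log2 ratio of -0.86 with an error limit of 0.51, and it remained far above the 22 °C mean, with a log2 ratio of 5.99 to it. For the first step, KO at 24 h over KO at 22 °C, the authors' deposited table gave a log2 fold change of 6.84 (adjusted p 1.32e-46). Control Ucp1 was 2948 RPKM at 7 d and 4966 RPKM at 24 h, and the KO change minus the Control change was -0.17 (SE 0.51, adjusted p 1.00), so no difference in the change was detected. In the authors' deposited tables KO over Control for Ucp1 was -0.38 at 7 d (adjusted p 0.578) and -0.21 at 24 h (adjusted p 0.779).

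Among 27 thermogenic genes with a ratio, 17 lay within 1.5-fold (against 90.3% of all genes), 4 were 2-fold or more lower at 7 d (1.35% of all genes) and 0 were 2-fold or more higher (1.79%). Of the 4 lower genes, 2 exceeded 2 times their error limit. The median ratio was -0.20 in KO and -0.21 in Control, and -0.49 among the KO members that reached 5 RPKM. The 4 lower genes act on fatty acids, glycerol and pyruvate. Fabp3, a fatty acid carrier protein, averaged 373 RPKM at 7 d against 986 RPKM at 24 h (log2 ratio -1.42, error limit 0.47). Elovl3, an enzyme that lengthens long fatty acids and is known to respond to cold, averaged 320.2 RPKM at 7 d against 713 RPKM at 24 h (-1.17, error limit 0.72). Pdk4, the kinase that shuts pyruvate dehydrogenase, averaged 258 RPKM against 550.3 RPKM (-1.11, error limit 0.34). The ratios of Fabp3 and Pdk4 exceed 2 times their limits and that of Elovl3 does not. Gyk, the glycerol kinase that re-esterifies glycerol within brown adipocytes, averaged 122 RPKM at 7 d and 246 RPKM at 24 h (-1.02, error limit 0.51), against 6.23 RPKM in KO at 22 °C. Ppargc1a, the coactivator that drives mitochondrial gene expression, averaged 3.73 RPKM at 7 d against 7.07 RPKM at 24 h, within 2 times its error limit of 0.47. Cox7a1, a cytochrome oxidase subunit isoform of heart, muscle and brown fat that was named after its values were seen, averaged 863 RPKM at 7 d and 881 RPKM at 24 h, against 56.4 RPKM at 22 °C.

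**Figure D1:**
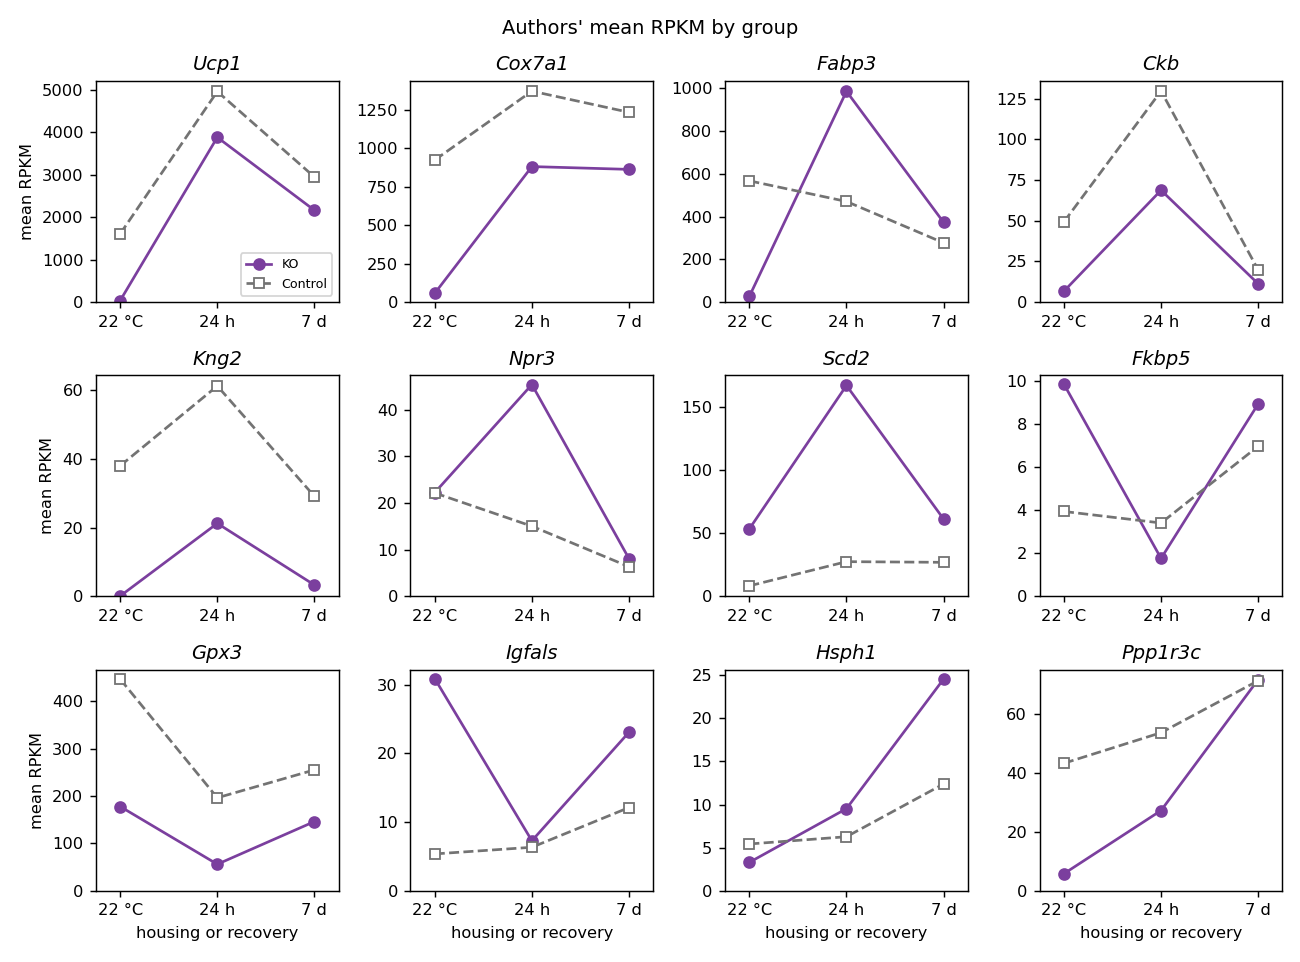
Authors' mean RPKM (vertical axes, from 0) of 12 genes in KO (filled circles) and Control (open squares) at 22 °C, 24 h and 7 d of recovery. KO Ucp1, Fabp3, Ckb, Kng2, Npr3 and Scd2 peak at 24 h, Cox7a1 stays level after 24 h, KO Fkbp5, Gpx3 and Igfals dip at 24 h, and Hsph1 and Ppp1r3c are highest at 7 d.

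The respiratory chain genes stayed at their 24 h level. All 37 complex I subunit genes and all 40 subunit genes of complexes II to V lay within 1.5-fold, against 90.3% of all genes. Of them 0 were 2-fold lower or higher, against 3.14% of all genes, and the medians were 0.0065 and -0.061. Relative to KO at 22 °C, the complex I median log2 ratio was 1.25 at 24 h and 1.25 at 7 d. For complexes II to V it was 1.26 at 24 h and 1.23 at 7 d. These ratios to 22 °C use the same KO 22 °C means, and the ratio of 7 d over 24 h uses the same 24 h means, so the values are given side by side and not as independent results. The lowest member was Cycs, cytochrome c, with 119 RPKM at 7 d against 166 RPKM at 24 h (-0.50, error limit 0.20), still above 29.4 RPKM at 22 °C. The highest was Uqcrq of complex III, with 473 RPKM at 7 d against 330.4 RPKM at 24 h (0.50, no error limit).

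Of 76 genes in the mitochondrial ribosome list, 75 lay within 1.5-fold, against 90.3% of all genes. The exception was Mrps36 with 15.8 RPKM at 7 d against 25.5 RPKM at 24 h (-0.70, error limit 0.28). Mrps36 is listed by its name, and its place in the ribosome was not tested. Genes of pyruvate import and the TCA cycle had a median of -0.11 with 28 of 31 within 1.5-fold, the same share as the 90.3% of all genes. Idh3a, the catalytic subunit of isocitrate dehydrogenase, averaged 564 RPKM at 7 d against 902 RPKM at 24 h (-0.69, error limit 0.18), while Idh3b and Idh3g had ratios of 0.31 and 0.32. Pdk1, another pyruvate dehydrogenase kinase, stood the other way from Pdk4, with 20.3 RPKM at 7 d against 12.3 RPKM at 24 h (0.71, error limit 0.25). Over all genes, 1052 (9.58%) had a KO mean 2-fold or more above KO at 22 °C at 24 h of recovery and 875 (7.97%) at 7 d, out of 10982 with a 22 °C mean. Those 2-fold or more below 22 °C numbered 636 (5.79%) at 24 h and 537 (4.89%) at 7 d.

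**Figure D2:**
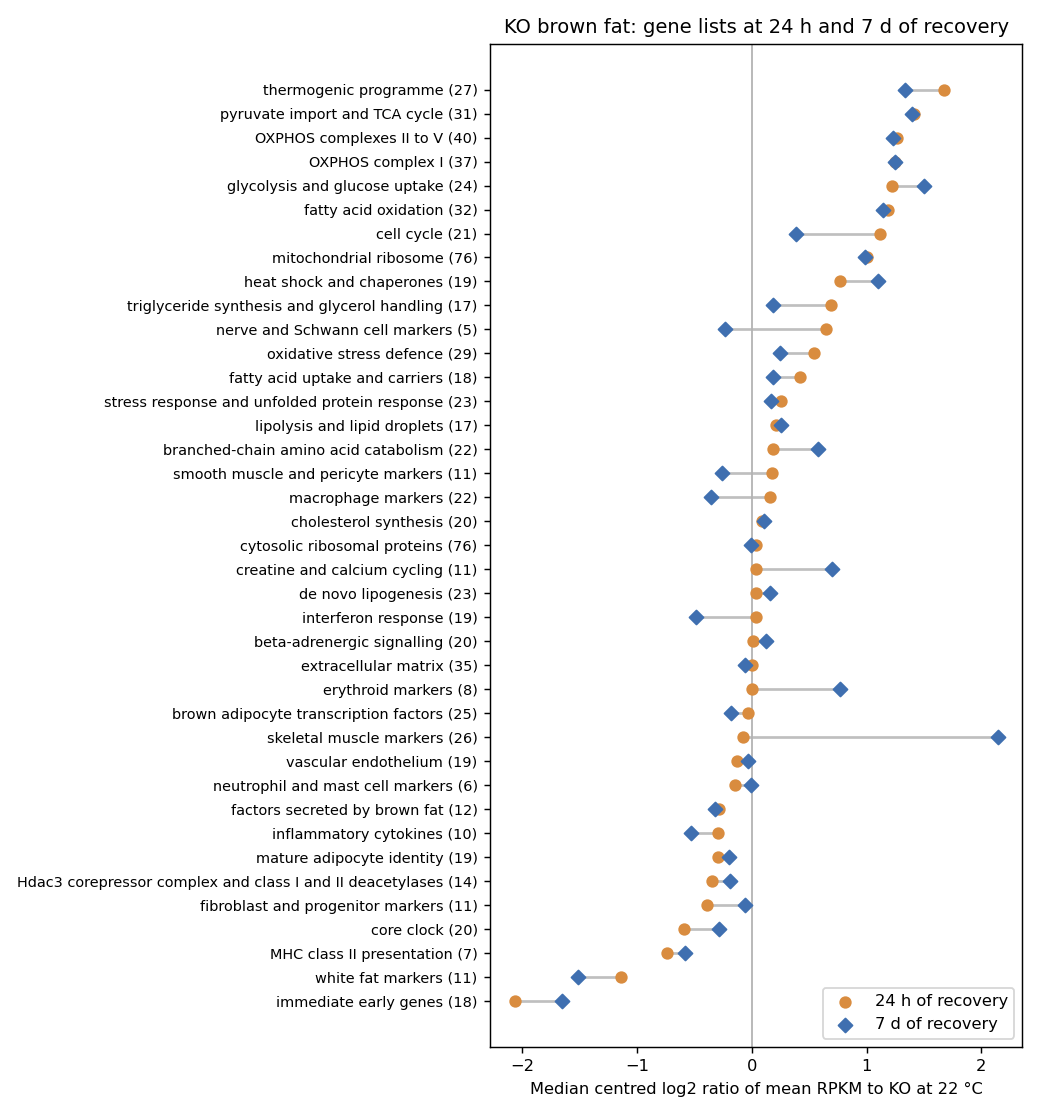
Median centred log2 ratio of KO means at 24 h (circles) and 7 d (diamonds) of recovery to the KO mean at 22 °C (horizontal axis) for each gene list with 5 or more members, whose number is in brackets. Respiratory chain lists overlap at about 1.25 at both times, the thermogenic list is at 1.67 at 24 h and 1.34 at 7 d, and skeletal muscle markers are at -0.077 and 2.15.

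Most fatty acid oxidation genes were level at 7 d. Of 32 genes, 27 lay within 1.5-fold, against 90.3% of all genes. A further 2 were 2-fold or more lower, against 1.35% of all genes, both beyond 2 error limits. Acaa1b, a peroxisomal thiolase with a near-identical paralogue so that shared reads make its count uncertain, averaged 19.5 RPKM at 7 d against 60.8 RPKM at 24 h (-1.66, error limit 0.47). Cpt1a, the liver isoform of the enzyme that admits fatty acids to mitochondria, averaged 4.14 RPKM at 7 d against 9.66 RPKM at 24 h (-1.24, error limit 0.33). The peroxisomal fatty acid transporter Abcd3 (-0.90, error limit 0.22) and the bifunctional enzyme Ehhadh (-0.84, error limit 0.32) also stood lower at 7 d. In the other direction, Ech1, an isomerase of unsaturated fatty acid breakdown, was the highest of the list with 1160.3 RPKM at 7 d against 725 RPKM at 24 h (0.66, error limit 0.25).

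Fatty acid uptake genes had a median ratio of -0.33 in KO and -0.071 in Control. Of the 18, 14 lay within 1.5-fold, against 90.3% of all genes, and 2 were 2-fold or more lower, against 1.35%. Fabp5, a further fatty acid carrier, averaged 179.8 RPKM at 7 d against 364 RPKM at 24 h (-1.03, error limit 0.38). Lpl, which frees fatty acids from lipoproteins, averaged 2239.9 RPKM at 7 d against 3027 RPKM at 24 h (-0.45, error limit 0.20). Triglyceride synthesis genes had a median of -0.32, with 16 of 17 within 1.5-fold, close to the 90.3% of all genes, and Gyk as the exception.

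Of the 23 lipogenic genes, Scd2 alone was 2-fold apart. Among all 23, 17 lay within 1.5-fold (against 90.3% of all genes), the KO median was 0.27 and the Control median 0.30. Acly, which makes cytosolic acetyl-CoA, averaged 538 RPKM at 7 d and 324 RPKM at 24 h (0.72, error limit 0.55). Mlxipl, the carbohydrate-sensing transcription factor ChREBP, averaged 18.6 RPKM at 7 d and 10.8 RPKM at 24 h (0.77, error limit 0.24), and its ratio exceeds 2 times the limit. Scd2, a fatty acid desaturase, went against the list, with 61.3 RPKM at 7 d against 167 RPKM at 24 h (-1.46, error limit 0.36). Of cholesterol synthesis genes 18 of 20 lay within 1.5-fold, close to the 90.3% of all genes, and 2 were 2-fold or more lower, against 1.35%. Among the 2 was Hsd17b7, with 0.867 RPKM at 7 d against 1.80 RPKM at 24 h (-1.07, error limit 0.37). Of lipolysis genes 15 of 17 and of branched-chain amino acid breakdown genes 20 of 22 lay within 1.5-fold, close to the 90.3% of all genes, with medians of 0.025 and 0.065.

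The 15 genes with the largest lower ratios, taken among those with 5 RPKM in either group and beyond 2 error limits, ran from -2.70 to -1.43. Kng2, a kininogen, averaged 0.0973 RPKM in KO at 22 °C, 21.3 RPKM at 24 h and 3.31 RPKM at 7 d. Its log2 ratio of 7 d over 24 h was -2.70 with an error limit of 0.32, and 5.04 remained between 7 d and 22 °C. Ckb, the brain-type creatine kinase that takes part in the energy-wasting creatine cycle of brown fat, averaged 6.62 RPKM at 22 °C, 68.8 RPKM at 24 h and 11.2 RPKM at 7 d. The KO ratio of -2.64 (error limit 0.38) stood beside a Control ratio of -2.65, with Control means of 19.7 RPKM at 7 d and 129.8 RPKM at 24 h. The rise of Ckb in KO at 24 h over 22 °C had a log2 fold change of 3.34 in the authors' deposited table (adjusted p 4.01e-28). Alpl, the alkaline phosphatase that acts in the same creatine cycle, averaged 6.96 RPKM at 7 d against 19.2 RPKM at 24 h (-1.48, error limit 0.30), with 2.70 RPKM at 22 °C. Both creatine cycle genes had their highest KO mean at 24 h.

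Npr3, the clearance receptor for natriuretic peptides, averaged 8.08 RPKM at 7 d against 45.4 RPKM at 24 h (-2.51, error limit 0.41), and the 7 d mean was also below the 22.2 RPKM of KO at 22 °C. Gmpr, a GMP reductase of purine metabolism, averaged 8.99 RPKM at 7 d against 34.2 RPKM at 24 h (-1.94, error limit 0.62). S100b, a calcium-binding protein that brown adipocytes release and that also marks glia, averaged 5.09 RPKM at 7 d against 14.01 RPKM at 24 h (-1.48, error limit 0.30), against 0.987 RPKM at 22 °C. The nerve and Schwann cell list summed to 21.5 RPKM at 7 d against 32.8 RPKM at 24 h. S100b is itself a member and makes up much of that fall, so the sum is no separate measure of such cells. Of the 5 members with a ratio, S100b included, 3 lay below 0 and 2 above. The part of such cells in the S100b value was not tested. The rest of the 15 were Mup10, Gchfr, Sdf2l1, Nnat, Gbp4, Acaa1b, Apoc2, Scd2 and Arxes1, with ratios from -2.05 to -1.43. Mup10, Gbp4 and Arxes1 belong to families of near-identical copies whose shared reads could be split by the counting, so their values are uncertain.

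**Figure D3:**
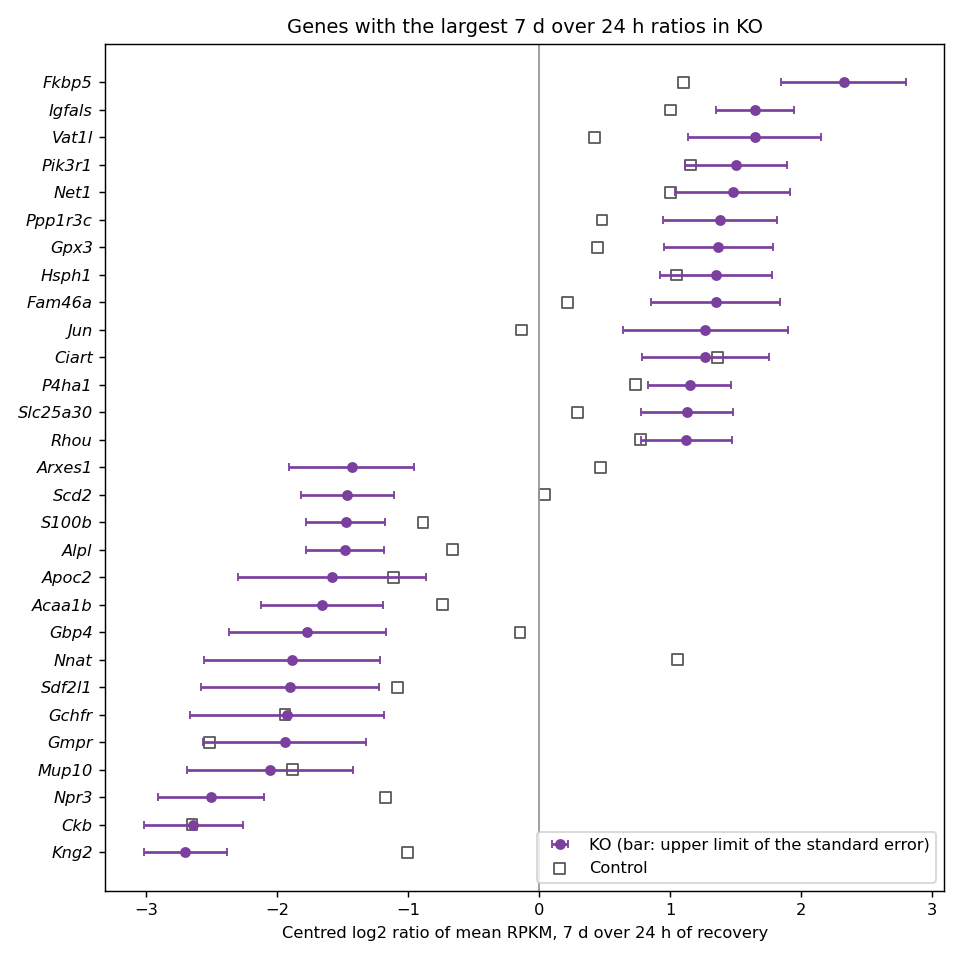
Centred log2 ratio of mean RPKM, 7 d over 24 h of recovery (horizontal axis), in KO (filled circles) and Control (open squares) for genes with the largest KO ratios, among the 15 per direction. Bars show the rebuilt error limit of the KO ratio, Ckb coincides in both genotypes, and the Nnat Control value lies on the opposite side of 0 from KO.

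With predicted loci and small RNAs passed over, the 15 largest higher ratios among genes with 5 RPKM in either group and beyond 2 error limits ran from 1.12 to 2.33, and the means of several genes at 7 d lay near those of KO at 22 °C. Fkbp5, a glucocorticoid-induced co-chaperone of the glucocorticoid receptor, averaged 9.86 RPKM in KO at 22 °C, 1.76 RPKM at 24 h and 8.94 RPKM at 7 d (2.33 for 7 d over 24 h, error limit 0.48). Igfals, the acid-labile subunit that holds IGF in the circulation, averaged 30.9 RPKM at 22 °C, 7.29 RPKM at 24 h and 23.1 RPKM at 7 d (1.65, error limit 0.30). Gpx3, a secreted glutathione peroxidase, averaged 178 RPKM at 22 °C, 56.0 RPKM at 24 h and 146 RPKM at 7 d (1.37, error limit 0.42). These 3 genes fell in KO at 24 h against 22 °C in the authors' deposited table, with log2 fold changes of -2.52 for Fkbp5, -2.12 for Igfals and -1.70 for Gpx3 (largest adjusted p 1.05e-07).

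Pik3r1, the regulatory subunit of PI3-kinase, averaged 36.0 RPKM at 7 d against 12.6 RPKM at 24 h (1.502, error limit 0.39). Net1, an exchange factor for RhoA, averaged 42.8 RPKM at 7 d against 15.2 RPKM at 24 h (1.48, error limit 0.44). Ppp1r3c, which brings protein phosphatase 1 to glycogen, took another course, with 5.82 RPKM at 22 °C, 27.3 RPKM at 24 h and 71.8 RPKM at 7 d (1.38, error limit 0.44). Vat1l, Hsph1, Fam46a, Jun, Ciart, P4ha1, Slc25a30 and Rhou were also among them, with ratios from 1.12 to 1.65. The secreted lipoprotein lipase inhibitor Angptl8, listed in the tables as Gm6484 and named here after its value was seen, averaged 43.2 RPKM at 7 d against 15.2 RPKM at 24 h (1.49, error limit 0.57), with a Control ratio of -0.50. Lep, the adipokine leptin, averaged 26.5 RPKM at 7 d against 10.3 RPKM at 24 h, and its ratio of 1.35 lay within 2 times the error limit of 0.72.

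Skeletal muscle transcripts were higher at 7 d almost as a block. All 26 markers had a ratio, 25 of them were 2-fold or more higher (against 1.79% of all genes), and they made up 25 of the 197 genes in that class. The median log2 ratio was 2.23 in KO and 1.72 in Control. The summed mean of the 26 was 973 RPKM in KO at 7 d against 219 RPKM in KO at 24 h, and 1185 RPKM in Control at 7 d against 393 RPKM in Control at 24 h. Ckm, muscle creatine kinase, averaged 93.1 RPKM at 7 d against 17.0 RPKM at 24 h, and Tnnt1, slow troponin T, averaged 13.3 RPKM against 1.28 RPKM. An error limit could be rebuilt for 18 of the 26, none of which exceeded 2 times its limit, and the limits ran from 0.79 (Des) to 2.60 (Mylk2) log2. Muscle isoforms placed in other lists shared this course and are counted here with it: Pgam2 and Eno3 of glycolysis (3.26 and 1.65), Ckmt2, Atp2a1 and Ryr1 of the creatine and calcium list (2.37, 1.99 and 1.49) and the small heat shock protein Cryab (1.56). In bulk tissue, more cells of a type and more RNA per cell cannot be told apart. The part of muscle tissue in these values was not tested.

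**Figure D4:**
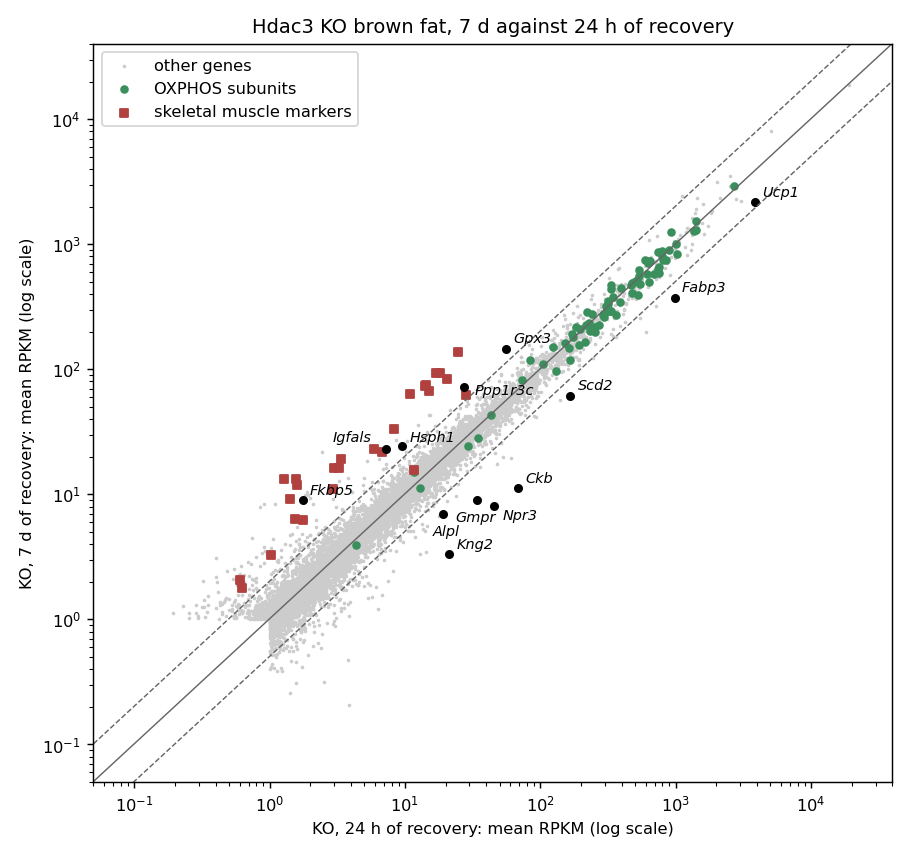
Authors' mean RPKM of each gene with 1 RPKM or more in either group, KO at 7 d (vertical, log scale) against KO at 24 h (horizontal, log scale). The solid line marks the median ratio and the dashed lines 2-fold from it, respiratory chain (OXPHOS) subunits (green) hug the solid line, and 25 of 26 skeletal muscle markers (red) lie on or above the upper dashed line.

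Of 19 heat shock and chaperone genes with a ratio, 3 were 2-fold or more higher at 7 d, against 1.79% of all genes. In the same list 0 were 2-fold or more lower, against 1.35%, and 11 lay within 1.5-fold, against 90.3%. The 3 include Cryab, given with the muscle transcripts, and 1 of them, Hsph1, exceeded 2 times its error limit. Hsph1, an Hsp110 chaperone of the cytosol, averaged 24.5 RPKM at 7 d against 9.52 RPKM at 24 h (1.35, error limit 0.42), and Hspb1 and Dnaja1 stood at 0.91 and 0.76 (error limits 0.33 and 0.25). Hspa5, the major chaperone of the endoplasmic reticulum, averaged 119 RPKM at 7 d against 192 RPKM at 24 h (-0.71, without an error limit), and Creld2, a protein induced by stress of the endoplasmic reticulum, averaged 5.11 RPKM against 10.5 RPKM (-1.06, error limit 0.38). In the stress and unfolded protein list, 3 of 23 genes were 2-fold or more lower (against 1.35% of all genes), namely Sdf2l1, Mthfd2 and Creld2, 2 of the 3 beyond 2 error limits, and 1, Chac1, was 2-fold or more higher (1.07, error limit 0.71). Pdia4, a disulfide isomerase, stood at -0.91 (error limit 0.29). The Control ratios were 0.33 for Creld2, 0.028 for Pdia4 and -0.11 for Hspa5, with an adjusted p for the KO change minus the Control change of 0.131 for Creld2 and 0.247 for Pdia4, and no rebuilt error for Hspa5.

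Promoters of Creld2, Hspa5 and Hsph1, and of the clock gene Ciart described next, are given to show the response elements they hold. Each runs from 250 bases before to 50 bases after the RefSeq start in build GRCm38.p6. Creld2, Hspa5 and Hsph1 are not the outermost genes of their lists by ratio, since Sdf2l1 stood at -1.90 and Cryab, among others, at 1.56. The tables themselves were made on another build, and only gene names were matched. Capitals mark the element, searched on both strands: the endoplasmic reticulum stress element, CCAAT and CCACG with 9 free bases between them, in Creld2 (chr15:88819396-88819695, plus strand) and Hspa5 (chr2:34771840-34772139, plus strand), the heat shock element, TTC, GAA and TTC with 2 free bases between each, in Hsph1 (chr5:149636287-149636586, minus strand), and the E-box CACGTG, bound by clock factors, in Ciart (chr3:95882179-95882478, minus strand).
Creld2: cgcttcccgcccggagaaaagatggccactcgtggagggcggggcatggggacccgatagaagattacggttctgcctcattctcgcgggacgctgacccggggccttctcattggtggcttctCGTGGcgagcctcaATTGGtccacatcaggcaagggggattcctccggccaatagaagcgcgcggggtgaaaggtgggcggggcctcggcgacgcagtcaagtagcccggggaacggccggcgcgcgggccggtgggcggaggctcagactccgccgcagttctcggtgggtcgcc
Hspa5: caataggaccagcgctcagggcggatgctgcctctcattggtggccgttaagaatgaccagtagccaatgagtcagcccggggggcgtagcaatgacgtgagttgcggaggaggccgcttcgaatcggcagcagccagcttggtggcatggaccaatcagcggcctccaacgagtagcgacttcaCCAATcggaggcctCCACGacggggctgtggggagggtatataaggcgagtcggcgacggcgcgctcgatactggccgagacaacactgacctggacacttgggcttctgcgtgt
Hsph1: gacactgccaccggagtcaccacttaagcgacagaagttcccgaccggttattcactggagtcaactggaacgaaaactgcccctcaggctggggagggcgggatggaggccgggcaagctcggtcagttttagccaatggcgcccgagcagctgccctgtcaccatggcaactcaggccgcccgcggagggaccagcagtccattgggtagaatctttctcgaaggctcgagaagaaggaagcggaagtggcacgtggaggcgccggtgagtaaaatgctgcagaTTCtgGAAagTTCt
Ciart: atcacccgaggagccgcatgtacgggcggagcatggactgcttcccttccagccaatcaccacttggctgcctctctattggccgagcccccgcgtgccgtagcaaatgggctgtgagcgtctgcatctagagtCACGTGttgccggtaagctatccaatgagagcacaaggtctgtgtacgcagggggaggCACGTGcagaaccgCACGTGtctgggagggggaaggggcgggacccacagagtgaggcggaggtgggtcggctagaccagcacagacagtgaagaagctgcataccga
The stress element stood in 37 of 27025 genes with a promoter in the table (0.137%) and in 4 of 24 members of the stress and unfolded protein list, which were Calr, Creld2, Hspa5 and Pdia6 with KO ratios of -0.54, -1.06, -0.71 and -0.24. The heat shock element stood in 179 genes (0.662%) and in 3 of 14 chaperone genes, Hspd1, Hspe1 and Hsph1, whose KO ratios of -0.37, 0.15 and 1.35 did not share a direction. The E-box stood in 2187 genes (8.09%) and in 5 of 18 clock genes, with ratios from -0.38 for Cry1 to 1.27 for Ciart. Counted from the start of transcription as 1, the first base of the element lies at -126 in Creld2, at -65 in Hspa5 and at 37 in Hsph1. Ciart holds 3 E-boxes in the window. A match of letters is a description and no measure of binding.

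Clock genes had a median of 0.29 in KO and 0.24 in Control, and 2 of 20 were 2-fold or more higher at 7 d (against 1.79% of all genes), both beyond 2 error limits. Ciart, a repressor in the clock loop, averaged 12.0 RPKM at 7 d against 4.92 RPKM at 24 h (1.27, error limit 0.48), with a Control ratio of 1.36. Bhlhe40, a clock repressor that also responds to other signals, averaged 31.3 RPKM at 7 d against 14.6 RPKM at 24 h (1.09, error limit 0.52). In Control its ratio was -0.61, of opposite sign, with 28.6 RPKM at 7 d and 45.7 RPKM at 24 h, and the adjusted p of the KO change minus the Control change was 0.220. All tissues were taken at ZT10, so no course over the day was measured.

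Immediate early genes, which respond to stimuli within minutes, had a KO median of 0.037 and a Control median of -0.64, and both KO recovery groups were well below KO at 22 °C, with medians of -2.07 at 24 h and -1.66 at 7 d. Jun was the only one 2-fold or more higher at 7 d, with 17.6 RPKM against 7.23 RPKM at 24 h (1.27, error limit 0.63), while Fos was at 0.340 RPKM at 7 d and 0.637 RPKM at 24 h. Of beta-adrenergic signalling genes 18 of 20 lay within 1.5-fold, close to the 90.3% of all genes. Adcy3, the adenylyl cyclase that cold raises in brown fat, averaged 145 RPKM at 7 d against 208 RPKM at 24 h (-0.54, error limit 0.29). Brown adipocyte transcription factors had 22 of 25 within 1.5-fold, against 90.3% of all genes, and the outermost were Ppargc1a at -0.94 and Tle3, a corepressor, at 0.61 (error limit 0.26). Among oxidative stress genes 24 of 29 lay within 1.5-fold, against 90.3% of all genes, with Gpx3 highest and Ucp2 lowest (-0.97, error limit 0.38).

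Of 22 macrophage markers 4 were 2-fold or more lower at 7 d, against 1.35% of all genes, and 0 higher, and 1 of the 4 exceeded 2 times its error limit. Their median was -0.46 in KO and -0.83 in Control, and the summed mean was 193 RPKM in KO at 7 d against 274 RPKM in KO at 24 h. Lgals3 and Cd68, markers of activated macrophages, stood at -1.38 and -1.26, without an error limit, while Csf1r, which marks all macrophages, stood at -0.11 (error limit 0.35). Cell cycle genes had a median of -0.79 in KO and -1.21 in Control, with 5 of 21 genes 2-fold or more lower, against 1.35% of all genes, and 0 higher. Of these 5, 2 exceeded 2 times their error limit. The median lay at -0.49 among members that reached 5 RPKM.

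Glycolytic genes had 20 of 24 within 1.5-fold, against 90.3% of all genes, and a median of -0.11. Ldhb, a lactate dehydrogenase subunit, averaged 193 RPKM at 7 d against 335 RPKM at 24 h (-0.81, error limit 0.21), and Pgk1, phosphoglycerate kinase, averaged 120.1 RPKM against 192 RPKM (-0.70, error limit 0.19). Both stayed above their KO means at 22 °C, 28.0 RPKM for Ldhb and 36.6 RPKM for Pgk1. Extracellular matrix genes had 30 of 35 within 1.5-fold, against 90.3% of all genes. Their median was -0.033 in KO and -0.37 in Control, with Col12a1 alone 2-fold lower (-1.01, error limit 0.34). Fibroblast markers had a median of -0.14, with Dpt, dermatopontin, at -0.81 (error limit 0.37) and Pi16, a marker of progenitors, at 1.02 (error limit 0.50). Interferon response genes had a median of -0.24 and 0 of 19 were 2-fold apart, against 3.14% of all genes. The 7 genes of MHC class II presentation all lay within 1.5-fold, against 90.3% of all genes. Of 10 cytokine genes 2 lay within 1.5-fold, against 90.3% of all genes, and 7 had ratios below 0 and 3 above. Their median was -0.70 in KO and -0.62 in Control. Ccl5 alone was 2-fold lower (-1.20, error limit 0.89), against 1.35% of all genes. Il15 alone was 2-fold higher (1.02, error limit 0.46), against 1.79% of all genes. Among factors that brown fat secretes, Nrg4, a neuregulin, averaged 89.9 RPKM at 7 d and 68.2 RPKM at 24 h (0.38, error limit 0.21), and Lcn2, lipocalin 2, averaged 0.205 RPKM at 7 d against 3.86 RPKM at 24 h (-4.25, error limit 1.60). Neutrophil and mast cell genes were low, with 6 of 6 within 1.5-fold, against 90.3% of all genes.

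Of 11 smooth muscle and pericyte markers 3 were 2-fold or more lower at 7 d, against 1.35% of all genes, 2 of them beyond 2 error limits. In this list 6 lay within 1.5-fold, against 90.3% of all genes, and 4 had ratios above 0. The median was -0.34 in KO and -0.30 in Control. Tagln and Acta2 averaged 3.50 and 4.57 RPKM at 7 d against 8.66 and 9.22 RPKM at 24 h (-1.32 and -1.03, error limits 0.42 and 0.40). Their Control ratios were -0.43 and -0.49. The pericyte marker Rgs5 stood at 0.22. Of endothelial markers 18 of 19 lay within 1.5-fold, close to the 90.3% of all genes. Their summed means were 402 RPKM at 7 d and 393 RPKM at 24 h. All 8 erythroid markers had positive ratios, with a median of 0.76 in KO and 0.19 in Control, and none reached 2-fold, against 3.14% of all genes. The globin genes among them are near-identical copies and their counts are not independent. Adipocyte identity genes had 18 of 19 within 1.5-fold, close to the 90.3% of all genes, with a median of 0.013. The exception was Retn, resistin, at -1.19 (error limit 0.58). Of 76 cytosolic ribosomal protein genes all 76 lay within 1.5-fold, against 90.3% of all genes, with a median of -0.036 in KO and -0.29 in Control.

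The change over the week was then compared between genotypes, as the KO over Control log2 fold change at 7 d minus that at 24 h in the authors' deposited tables, which equals the KO change minus the Control change. The deposited fold changes carry the authors' normalization factors, so this difference is close to, but not the same as, that of the ratios of means. Genes with a deposited p above 0.9 at either recovery time had no rebuilt error and could not be called, whatever their difference. Lgals3 (difference 1.07) and Tagln (-0.89) were among those left out. Of 10425 genes tested, out of 12224 joined, 21 (0.201%) differed at an adjusted p under 0.05. The change in KO was more negative for 9 of them (0.0863%) and more positive for 12 (0.115%). At an unadjusted p under 0.05 there were 626. Of 10974 genes with 1 RPKM or more in either KO group and a Control ratio, 253 (2.31%) were 2-fold or more lower and 135 (1.23%) 2-fold or more higher in Control at 7 d against 24 h.

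Kng2 had the smallest p, with a KO change of -2.70 and a Control change of -1.003, and a difference of -1.68 (SE 0.32, adjusted p 0.00115). The authors' deposited tables gave KO over Control for Kng2 as -3.07 at 7 d (adjusted p 8.37e-35) and -1.39 at 24 h (adjusted p 4.54e-09). Scd2 averaged 61.3 RPKM in KO and 27.0 RPKM in Control at 7 d, and 167 RPKM in KO and 27.5 RPKM in Control at 24 h, so the KO mean at 7 d lay nearer to the Control mean than at 24 h. The difference for Scd2 was -1.48 (SE 0.36, adjusted p 0.0348). Hacl1, a peroxisomal enzyme of fatty acid alpha-oxidation, averaged 56.4 RPKM in KO at 7 d and 139 RPKM in KO at 24 h, against 23.5 and 29.3 RPKM in Control (difference -1.06, adjusted p 0.0445). Lipa, the lysosomal acid lipase, averaged 42.0 RPKM in KO at 7 d and 89.3 RPKM in KO at 24 h, against 57.3 and 67.3 RPKM in Control (difference -0.94, adjusted p 0.0348). For both enzymes the KO mean was lower at 7 d than at 24 h by a larger ratio than the Control mean. The VLDL receptor Vldlr (-0.84, adjusted p 0.0348), the clock output factor Dbp (-0.83, adjusted p 0.0348), Nnat, Gnao1 and Arxes1 completed the negative side. Dbp was higher at 7 d in both genotypes, by 0.60 in KO and 1.44 in Control. With ratios of the means in place of the deposited fold changes, Kng2 and Nnat kept an adjusted p under 0.05, and the other 7 lay between 0.0571 (Scd2) and 0.0879 (Hacl1).

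On the positive side, the Control mean of several genes, Cdkn1a among them, was lower at 7 d than at 24 h while the KO mean was not. For Slc25a34 and Arntl both means were lower at 7 d. Their log2 ratios were -0.16 and -0.67 in KO, against -2.64 and -2.25 in Control. Cdkn1a, the cell cycle inhibitor p21, averaged 19.4 RPKM in KO at 7 d and 14.6 RPKM in KO at 24 h, against 4.74 and 14.4 RPKM in Control (difference 1.93, SE 0.42, adjusted p 0.0131). Slc25a34, a mitochondrial carrier, averaged 26.4 RPKM in KO at 7 d and 29.2 RPKM in KO at 24 h, against 3.54 and 23.2 RPKM in Control (difference 2.47, adjusted p 0.0169). In KO, Slc25a34 at 22 °C was 6.65 RPKM, so its KO mean was still raised at 7 d. Arntl, the clock activator BMAL1, averaged 2.46 RPKM in KO at 7 d and 3.87 RPKM in KO at 24 h, against 0.559 and 2.79 RPKM in Control (difference 1.62, adjusted p 0.0348). Slc27a1, a fatty acid transport protein, averaged 132 RPKM in KO at 7 d and 85.8 RPKM in KO at 24 h, against 72.3 and 87.9 RPKM in Control (difference 0.84, adjusted p 0.0445). Wdtc1, whose fly counterpart restrains fat storage, differed by 1.00 (adjusted p 0.00714), with a KO change of 0.73 and a Control change of -0.26. Tnc, Ninj1, Itih4, Sh3pxd2a, Slc7a8, Angptl2 and Bcar1 were the others, with differences from 0.79 to 2.94. Itih4 had a Control mean of 14.9 RPKM at 24 h and KO means under 1 RPKM at both times. Tnc and Slc7a8 were also low, with KO means of 0.561 and 0.806 RPKM at 24 h and Control means of 0.709 and 0.316 RPKM at 7 d. The genotype test did not use the minimum of 1 RPKM. None of the 18 skeletal muscle markers tested and none of the 33 complex I and 31 complex II to V subunits tested was among the 21. With 0.201% of all genes tested called, no call in lists of this size cannot show that the genotypes changed alike. The muscle errors were also wide (SE 2.55 for Tnnt1 and 2.51 for Myh7), so only a very large difference could have been called there. With the deposited fold changes centred on their median, Angptl2, Bcar1 and Slc27a1 had adjusted p of 0.0841, 0.0822 and 0.0815.

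**Figure D5:**
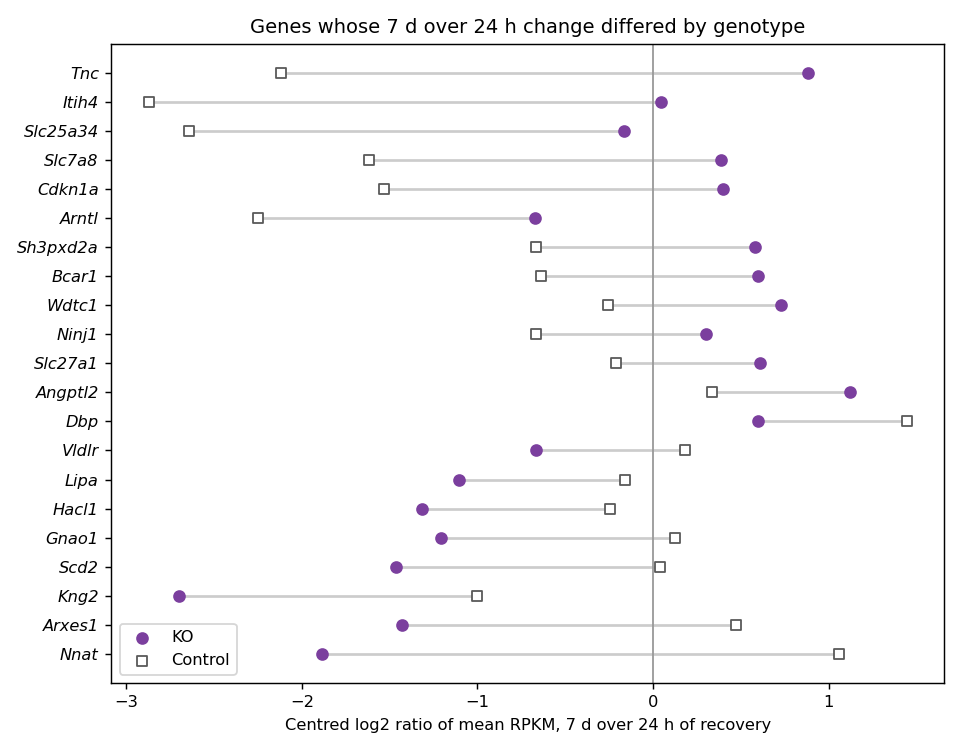
Centred log2 ratio of mean RPKM, 7 d over 24 h of recovery (horizontal axis), in KO (filled circles) and Control (open squares) for the 21 genes whose change differed by genotype. The 12 genes from Tnc to Angptl2 have the KO value to the right of Control, and the 9 from Dbp to Nnat have it to the left.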

How the data were processed

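Per the labels' protocols, RNA from interscapular brown fat was extracted with TRIzol and RNeasy, depleted of ribosomal RNA with Ribo-Zero and made into TruSeq libraries, which keeps transcripts without a poly(A) tail. Groups came from the library labels. The submitters' processing notes name STAR, featureCounts, edgeR and mm9, without versions, and say nothing of strand or shared reads. Per the file headers, the authors deposited 5 tables, each with 2 group means, a log2 fold change, a log2 CPM and a p-value, raw and adjusted. The means were read as RPKM from their values, since the headers of the deposited tables give no unit. A gene is listed where its higher mean is 0.5 RPKM or more.

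The 7 d and 24 h tables were joined by gene, the ratio of KO means was centred on its median, and genes with a mean of 1 RPKM or more in either group were kept, with no pseudocount. The variance of a deposited fold change was rebuilt as the square of the log2 fold change over the normal score of its p-value, for p up to 0.9. The error limit adds the variance of KO over Control at 7 d to the smaller of those of KO over Control at 24 h and KO at 24 h over 22 °C. The difference between genotypes was divided by its rebuilt error, tested two-sided against the normal distribution and adjusted by Benjamini-Hochberg over all genes. The arithmetic was checked on simulated data whose p-values were made from the same normal score. Such a check cannot show how well the rebuilt errors hold for the deposited p-values. A count test designed for library values could not be run on group means.

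Named genes are Hdac3 and Ucp1, up to 15 per direction with the largest ratio (5 RPKM or more, beyond 2 error limits, predicted loci and small RNAs passed over), up to 4 per list with the largest ratio, and up to 6 per direction from the genotype test. A few others were named after their values were seen, among them Cidea, Cox7a1, Ech1, Csf1r, Fos and those named as exceptions. Some genes that the rule names are not reported here. The members and the 40 lists were chosen with earlier results of these data known. Promoters were matched by symbol for 139 of 173 named genes. Python 3.11.15, numpy 2.4.6, pandas 2.3.3, scipy 1.17.1 and matplotlib 3.10.9 were used.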

Additional observations from a re-analysis of the deposited data

Results flagged for a closer look

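For 21 genes the KO change over the recovery week differed from the Control change by the test of the difference itself (log2 units, KO change minus Control change). The more negative changes in KO were -1.68 for Kng2, -2.91 for Nnat, -1.87 for Arxes1, -1.48 for Scd2, -1.31 for Gnao1, -1.06 for Hacl1, -0.94 for Lipa, -0.84 for Vldlr and -0.83 for Dbp. The more positive changes were 2.94 for Tnc, 2.90 for Itih4, 2.47 for Slc25a34, 1.94 for Slc7a8, 1.93 for Cdkn1a, 1.62 for Arntl, 1.27 for Sh3pxd2a, 1.25 for Bcar1, 1.00 for Wdtc1, 0.99 for Ninj1, 0.84 for Slc27a1 and 0.79 for Angptl2. Those of Tnc, Itih4 and Slc7a8 rest on low means, with no KO mean of theirs above 1.07 RPKM at 24 h or 7 d, so their size is uncertain.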

How the results depend on the processing

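The counts of genes 2-fold or more lower and higher in KO at 7 d, 148 and 197, became 55 and 76 with a minimum mean of 5 RPKM, 531 and 538 at 1.5-fold, 63 and 106 with a pseudocount of 1, and 62 and 43 when the ratio also had to exceed 2 error limits. With a pseudocount of 0.5 the lower count was 87. Other centrings, no minimum and the KO mean from the other table kept both counts within 1.5 times. The 9 and 12 genes whose change differed between genotypes became 42 and 32 with scores from the t distribution with 18 degrees of freedom, all 21 included. With ratios of the deposited means the 9 became 2, both among the 9. With errors rebuilt only from p up to 0.5 the counts fell to 8 and 8, all among the 21. No named gene changed direction under the alternatives run. Medians of 5 lists, all close to 0, changed sign: with a minimum mean of 5 RPKM cholesterol synthesis (0.065), beta-adrenergic signalling (-0.032), white fat markers (0.082) and factors secreted by brown fat (0.082), with no minimum white fat markers (0.0071), and without centring brown adipocyte transcription factors (0.011). Of the values recomputed for named genes 1367 stayed within their error and 8 moved, and of list medians 313 stayed and 5 moved.

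The tables give no value per library, so no replicate could be left out and 1 outlying library in a group mean would not be seen. No paired analysis was possible because the tables hold group means without replicate numbers. At these depths a mean near 1 RPKM rests on few reads, and 24 lower and 55 higher genes past 2-fold have no error limit. The cause of each moved count was not tested beyond the change of setting itself.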
